A study of Mus musculus with 2 samples.

Results

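Agt, C3, C4b, Serpina3n, Cd44, Vcam1, Cp, Lcn2 and Ptx3 were grouped for description as reactive astrocyte and complement genes. Reactive refers to astrocytes after injury or inflammation. Cd44, Cp, Lcn2, Serpina3n, C3 and Ptx3 stand on the published lists of reactive astrocyte genes used below. Agt, C4b and Vcam1 stand on none of those lists. C3 and C4b are 2 components of the complement cascade. The 9 genes are part of the 19595 in the deposited count table, taken by symbol. They were chosen with their levels in these same libraries known, so every value below is a description and none is a test. The cells were neural stem cells taken from ICR mouse brain at embryonic day 13, and their RNA was sequenced to ask how Ccdc25, a coiled-coil domain gene, bears on neurogenesis, the subject the title names. In the labels the knockdown library is called sh1 and its genotype KO. The control library is called psicor, its genotype WT, and it shares cell type, strain and stage with the knockdown. The table holds 1 library of each kind, the labels do not say how many cultures or animals stand behind it, and no difference has a replicate check. The knockdown library had 16058407 counts and the control library 16549682, so that 3 counts, taken as the floor for a gene at 0, equal 0.190 CPM in the knockdown and 0.178 CPM in the control library (CPM being counts relative to the scaled total of the library). Ccdc25 itself had 411 counts in the knockdown and 553 in the control library, a ratio of 0.794 with a 95% counting interval of 0.697 to 0.904.

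An astrocyte that reacts to injury enlarges, makes more intermediate filament and secretes acute phase proteins, protease inhibitors and complement factors. Complement is a cascade of secreted proteins in which the C4 protein, cleaved by the classical and lectin starter enzymes, helps build the enzyme that cleaves C3, and cleaved C3 then tags surfaces. In the developing mouse brain, complement tags synapses that microglia remove. Agt and Vcam1 have roles without injury. Astrocytes are the main source of angiotensinogen in the brain. Mouse neural stem cells of the adult ventricular wall use VCAM1 to hold on to their niche.

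The 9 genes did not all go the same way. Agt, C4b, Ptx3 and Vcam1 exceeded their control level by 2-fold or more. Cp, Cd44 and C3 lay within 2-fold, with Cp above and Cd44 and C3 below their control level. Serpina3n and Lcn2 had fewer than a mean of 1 CPM over both libraries, the minimum used here for a count of genes. Of all 14158 genes past that minimum, 7.64% exceeded control by 2-fold or more and 7.76% fell short of it by as much. The 9 genes were picked on this contrast. Agt and C4b, at 0.949 and 0 CPM in the control library, passed the minimum through the knockdown library alone. C3, at 0.698 CPM in the knockdown library, passed it through the control library alone. So nothing is read from the count of the 9 genes against these shares. The shares are also the background of each list count below, where some genes likewise passed through 1 library alone.

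Upstream sequence is shown for Agt and Ptx3, the 2 genes furthest above control among those with a promoter entry, and for C3, the lowest of the 7 genes past the minimum, so that the start regions of genes high above control and of one that was not can be compared. Each RefSeq sequence (build GRCm38.p6) runs from 250 bases before to 50 bases after the annotated start, 5′ to 3′ on the strand of the gene. Capitals mark matches to TATAAA, to TTCNNNGAA (the core bound by STAT factors), to TTGCNNAA (the core bound by C/EBP factors) or to the NF-kB consensus, searched on both strands. TGANTCA, the AP-1 core, was searched as well.
Agt, chr8:124569657-124569956, minus strand: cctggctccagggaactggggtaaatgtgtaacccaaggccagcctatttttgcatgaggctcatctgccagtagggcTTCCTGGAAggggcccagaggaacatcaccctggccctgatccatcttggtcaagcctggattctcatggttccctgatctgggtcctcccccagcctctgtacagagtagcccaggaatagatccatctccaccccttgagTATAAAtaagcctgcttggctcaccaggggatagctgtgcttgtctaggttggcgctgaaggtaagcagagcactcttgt
Ptx3, chr3:66219637-66219936, plus strand: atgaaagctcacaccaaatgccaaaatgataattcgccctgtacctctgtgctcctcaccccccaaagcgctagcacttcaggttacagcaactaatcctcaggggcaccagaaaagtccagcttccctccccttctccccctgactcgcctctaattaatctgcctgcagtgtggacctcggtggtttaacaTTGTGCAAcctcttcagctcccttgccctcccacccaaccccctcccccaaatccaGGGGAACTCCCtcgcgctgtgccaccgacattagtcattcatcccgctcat
C3, chr17:57228087-57228386, minus strand: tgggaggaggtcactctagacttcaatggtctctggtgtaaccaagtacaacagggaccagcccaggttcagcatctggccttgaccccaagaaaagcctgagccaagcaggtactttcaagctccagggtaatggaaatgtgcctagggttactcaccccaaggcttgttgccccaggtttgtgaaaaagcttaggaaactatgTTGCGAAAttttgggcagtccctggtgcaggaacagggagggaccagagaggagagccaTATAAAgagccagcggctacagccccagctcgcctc

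In the Agt window the STAT core began 172 bases before the start and the TATA match 30 bases before it. In the Ptx3 window the C/EBP core began 57 bases before the start, and 2 overlapping NF-kB matches covered the start itself. The C3 window had a C/EBP core 45 bases before the start and a TATA match 14 bases after it. Such matches are common: of 32851 RefSeq windows of the same length, 8.30% held the STAT core, 10.8% the C/EBP core, 8.46% the NF-kB consensus, 7.81% the AP-1 core and 13.6% TATAAA. Entries were found for 7 of the 9 genes, and the windows of Cd44 and Serpina3n held none of these letters. The matches are descriptions of sequence, not evidence of binding.

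Agt encodes angiotensinogen, a secreted member of the serpin family that is not itself a protease inhibitor and is the precursor of all angiotensin peptides. Agt (ENSMUSG00000031980, chromosome 8, 124556534 to 124569706 on the minus strand) had 782 counts in the knockdown and 16 in the control library, or 49.6 and 0.949 CPM. Its ratio of knockdown over control was 52.2, with a 95% counting interval of 32.0 to 91.8. It was the 17th highest log2 fold of the 14158 genes. Per length, over the union of its exons, Agt was at 26.2 RPKM (CPM per kilobase) in the knockdown and 0.502 RPKM in the control library.

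Other genes of the angiotensin system went both ways. Of the 18 genes on this list, 8 passed the minimum, with 2 at least 2-fold higher, 4 at least 2-fold lower and 2 within 2-fold. Their median log2 fold was -0.72, against -0.004 over all genes past the minimum. Besides Agt, the higher gene was Agtrap, which encodes a binding partner of the angiotensin receptor, at 38.3 CPM in the knockdown and 15.0 CPM in the control library. Ace, the enzyme that makes angiotensin II, was at 2.28 CPM in the knockdown and 7.54 CPM in the control library (ratio 0.303, interval 0.203 to 0.442). Mme, which encodes neprilysin, a peptidase that cuts angiotensin I among other peptides, had 0 counts in the knockdown and 61 in the control library. That is 19.0-fold lower with the floor of 3 counts in place of 0, and the counting interval of its ratio reached up to 0.0666. The receptor gene Agtr1a had 4 and 5 counts in the knockdown and control libraries.

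C4b was counted in the knockdown library alone, and C3 was low in both libraries. C4b (ENSMUSG00000073418, chromosome 17, 34728380 to 34743882 on the minus strand), the mouse gene for complement component 4, had 59 counts in the knockdown library and 0 in the control library. At 3.74 CPM it was at least 21-fold higher than the control floor. C3 (ENSMUSG00000024164, chromosome 17, 57203970 to 57228136 on the minus strand), the component on which all complement routes converge, had 11 counts in the knockdown and 22 in the control library. Those are 0.698 and 1.31 CPM, a ratio of 0.534 whose counting interval of 0.234 to 1.15 holds 1. With a mean of 1 CPM, C3 lay at the expression minimum, and its direction is not settled at this depth.

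The C4b value has to be read with its neighbour C4a, which lies 65.2 kb away and arose by duplication of the same gene. C4a, known in mice as the sex-limited protein gene, had 25 counts in the knockdown and 55 in the control library, a ratio of 0.486 (0.290 to 0.793). The longest transcripts of the pair were 96.1% identical over 5367 aligned bases. Of all 50-base words in the C4b transcript 35.2% also occur in C4a, and 16.5% of 100-base words do. How the authors' counting treated reads that align to both genes is not given in the sources used here, so the split between the pair is uncertain. The 60-base stretch of exon 21 in which they differ most is shown because reads that cover it can be told apart, with the differing bases in capitals (GRCm38, both genes on the minus strand, 5′ to 3′ along the transcript).
C4b, chr17:34735430-34735489: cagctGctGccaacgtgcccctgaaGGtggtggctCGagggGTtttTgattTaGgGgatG
C4a, chr17:34816086-34816145: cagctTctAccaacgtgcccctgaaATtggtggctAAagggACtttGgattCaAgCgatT

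As a sum, C4b and C4a had 84 counts in the knockdown and 55 in the control library, a ratio of 1.63 (1.15 to 2.34). C4b made up 70.2% of the pair's counts in the knockdown library (exact binomial 95% interval 59.3% to 79.7%). It made up 0 of 55 in the control library, where the exact upper limit is 6.49% and the floor of 3 counts a share of 5.45%. As counted, C4b was higher and C4a lower in the knockdown library, while their sum had a log2 fold of 0.70. The uncertainty about reads that align to both genes applies to these shares, and their binomial limits do not cover it.

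**Figure D1:**
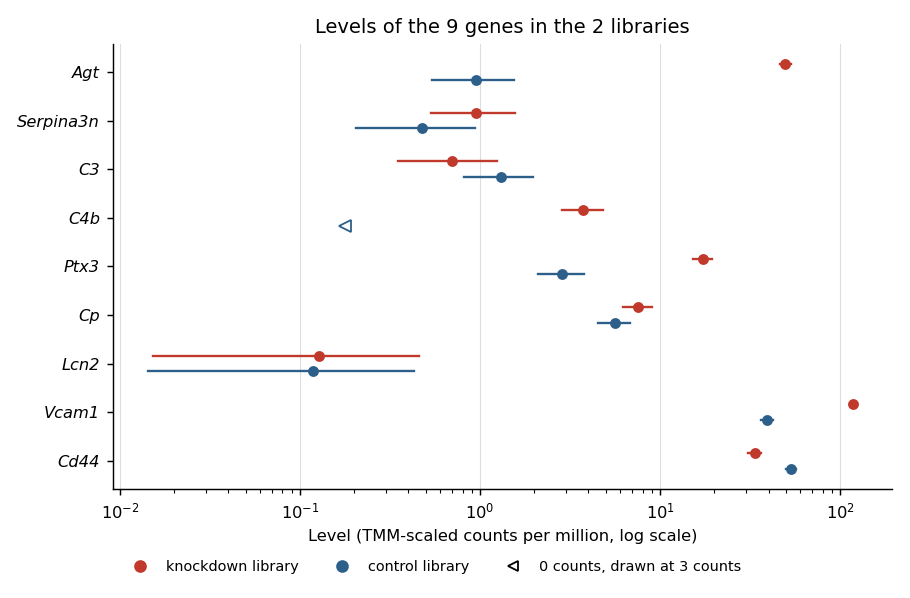
Level of each gene in TMM-scaled CPM (log scale) in the knockdown library (upper point of each row) and the control library (lower point), with exact Poisson 95% intervals that cover counting error only. Agt, C4b, Ptx3 and Vcam1 stand higher in the knockdown library and Cd44 lower, with no overlap of the intervals, while Lcn2 has 2 counts in each and C4b has 0 counts in the control library (open triangle, drawn at 3 counts).

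Other complement genes were mixed. Of the 31 complement components on the list, 8 passed the minimum, with 1 at least 2-fold higher (C4b), 2 at least 2-fold lower (Colec12 and C4a) and 5 within 2-fold, and their median log2 fold was 0.13. Without the minimum the sign of this median turned, to -1.03, with 8 genes at least 2-fold lower. The most abundant were Masp1, a serine protease of the lectin route, at 31.5 CPM in the knockdown and 19.9 CPM in the control library, and Cfp, which encodes properdin, the stabiliser of the alternative route, at 22.7 and 12.9 CPM. C2, the partner of C4 in the C3-cleaving enzyme, had 20 counts in the knockdown and 21 in the control library. C1s2, a copy of the C1s protease gene, had 26 and 2 counts but did not reach the minimum.

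Genes of the starter protein C1q and several receptors had 5 counts or fewer in the knockdown library. C1qa, C1qb and C1qc, whose products form the recognition molecule C1q, had 5 counts together in the knockdown and 43 in the control library, a ratio of 0.124 (0.0384 to 0.313). C3ar1, the receptor for the C3a fragment, had 1 count in the knockdown and 39 in the control library. C5ar1 had 1 and 16 counts and Cr2 had 2 and 16 counts in the knockdown and control libraries. None of C5ar1, Cr2 and the C1q genes reached the minimum.

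Several complement regulators were present in both libraries. Of 24 regulators and receptors, 10 passed the minimum, with 2 at least 2-fold higher, 2 at least 2-fold lower and 6 within 2-fold, a median log2 fold of 0.37, which turned to -0.57 without the minimum. Serping1, the C1 inhibitor, had 28 counts in the knockdown and 7 in the control library, a ratio of 4.27 (1.82 to 11.6). Clu, which encodes clusterin, a secreted chaperone that blocks the terminal complex, was at 59.7 CPM in the knockdown and 26.8 CPM in the control library. Cr1l, the membrane regulator Crry of mice, was at 19.3 and 20.1 CPM, and Cd93 at 4.44 and 9.02 CPM.

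**Figure D2:**
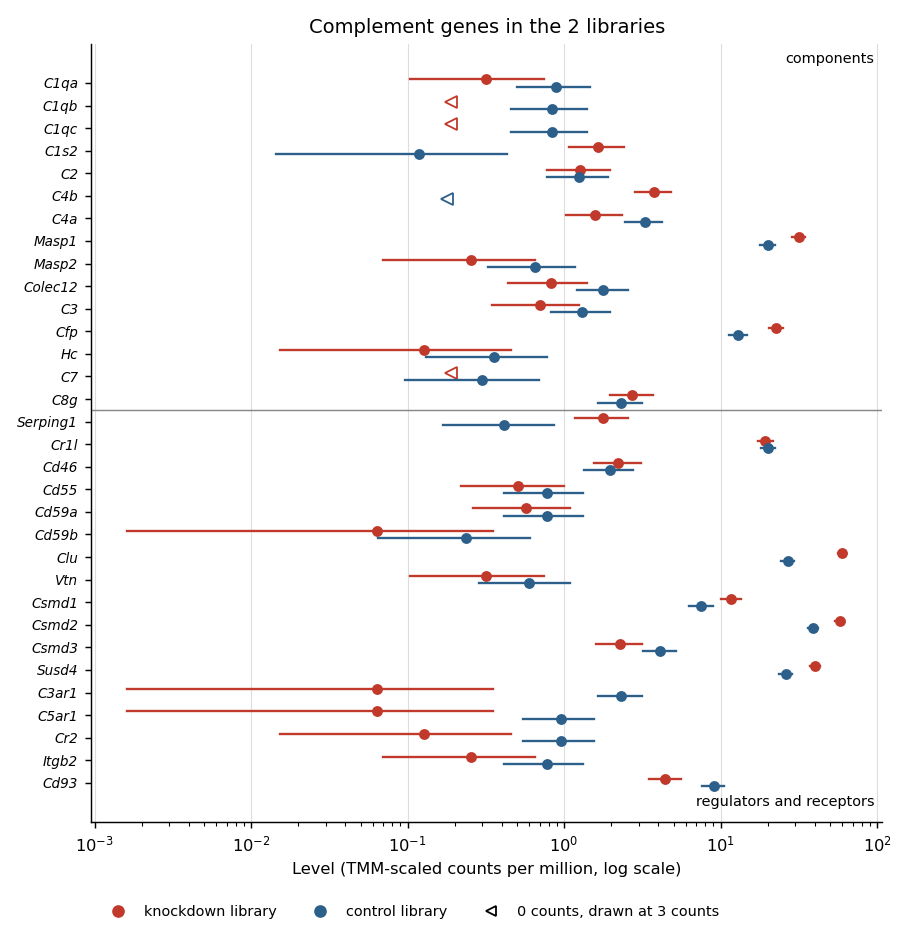
Level of each listed complement gene in TMM-scaled CPM (log scale), knockdown library above control library in each row, with exact Poisson 95% intervals for counting error. Components stand above the line and regulators and receptors below it. C4b, C1s2 and Serping1 lie to the right in the knockdown library, and C1qb, C1qc and C7 had 0 counts there (open triangles, drawn at 3 counts).

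Macrophage markers were also lower in the knockdown library. Of 15 microglia and macrophage markers 13 were listed and 3 passed the minimum, with 0 at least 2-fold higher, 1 at least 2-fold lower and 2 within 2-fold, and a median log2 fold of -0.88. Without the minimum 10 of the 13 were at least 2-fold lower, with a median log2 fold of -3.60, or -1.78 with genes at 0 placed at 3 counts. C1qa, C1qb and C1qc stand on this list too. The summed level of the 13 was 12.4 CPM in the knockdown and 40.5 CPM in the control library. Of this sum Cd68 alone made up 9.57 and 12.8 CPM (ratio 0.750, interval 0.605 to 0.928). Cd68 and Aif1, the latter with 17 counts in the knockdown and 34 in the control library, were the 2 within 2-fold. Csf1r, Cx3cr1, Ptprc, Tmem119, C1qb and C1qc were at 0 counts in the knockdown library and between 6 and 21 counts in the control library. Lyz2, the lysozyme of macrophages, had 16 and 309 counts in the knockdown and control libraries. The part of such cells in the values of C3, C1q and the complement receptors was not tested. In bulk libraries fewer cells of a type and less RNA per cell cannot be told apart.

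Ptx3 encodes the long pentraxin PTX3, a secreted pattern recognition protein that binds C1q and links hyaluronan chains in the matrix. Ptx3 (ENSMUSG00000027832, chromosome 3, 66219910 to 66225805 on the plus strand) had 272 counts in the knockdown and 48 in the control library, or 17.2 and 2.85 CPM. Its ratio was 6.06 (4.44 to 8.41), the 156th highest log2 fold. Ptx3 lies inside Veph1 on the opposite strand, with no exonic bases in common. Veph1 had 147 counts in the knockdown and 6 in the control library, a ratio of 26.2 (11.7 to 72.5). Strandedness is not stated, and whether reads from introns of Veph1 entered the Ptx3 counts was not tested.

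Vcam1 was the most abundant of the 9 genes in the knockdown library by count and Cd44 in the control library, and they went in different directions. Vcam1 (ENSMUSG00000027962, chromosome 3, 116109949 to 116129688 on the minus strand), an immunoglobulin-type adhesion protein that binds the integrin of α4 and β1 chains, had 1866 counts in the knockdown and 662 in the control library. Those are 118 and 39.3 CPM (ratio 3.01, interval 2.75 to 3.30), the 474th highest log2 fold. Vcam1 has 61 exonic bases in common with Gm43109 on the opposite strand. Cd44 (ENSMUSG00000005087, chromosome 2, 102811141 to 102901665 on the minus strand), the main hyaluronan receptor, had 528 counts in the knockdown and 900 in the control library. Those are 33.5 and 53.4 CPM (ratio 0.627, interval 0.562 to 0.699), or 37.3% lower. Cd44 was the only 1 of the 9 genes whose counting interval lay below 1. Such intervals are narrow at this depth: 33.6% of all genes past the minimum had one below 1 and 33.2% one above 1.

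Among genes of leukocyte adhesion past the minimum, none but Vcam1 exceeded its control level by 2-fold. Of 14 such genes 8 passed the minimum, with 1 at least 2-fold higher (Vcam1 itself), 4 at least 2-fold lower and 3 within 2-fold, and a median log2 fold of -0.95. Itga4, the α4 chain of the VCAM1 receptor, was at 2.35 CPM in the knockdown and 5.87 CPM in the control library, and Itga9, another integrin chain that binds VCAM1, had 22 and 72 counts. Itgb7, another partner of the α4 chain, had 13 counts in the knockdown and 1 in the control library and did not reach the minimum. Itgb1, the β1 chain, was at 287 CPM in the knockdown and 350.1 CPM in the control library. Icam1, which like Vcam1 is induced by inflammatory cytokines on endothelium, was at 1.90 and 5.28 CPM (ratio 0.360, interval 0.230 to 0.550). The antisense gene Gm47079 has 511 exonic bases in common with Icam1, whose value is uncertain if counting ignored strand. Pecam1, a defining endothelial marker, had 9 and 8 counts in the knockdown and control libraries.

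Genes of hyaluronan, the ligand of CD44 and the polymer that PTX3 helps to link, went both ways. Of 23 genes on this list 19 passed the minimum, with 5 at least 2-fold higher, 2 at least 2-fold lower and 12 within 2-fold, and a median log2 fold of -0.11. Itih3, a heavy chain that is attached to hyaluronan together with PTX3, had 158 counts in the knockdown and 15 in the control library, a ratio of 11.3 (6.62 to 20.6). Itih5, a related heavy chain, was at 6.40 and 1.84 CPM. Of the hyaluronan synthases, Has2 had 43 counts in the knockdown and 20 in the control library and Has3 had 27 and 115. Tnfaip6, the enzyme that transfers the heavy chains, was at 14.3 and 17 CPM, within 2-fold.

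Cp, Serpina3n and Lcn2, which other studies list among induced astrocyte genes, lay at or below 7.55 CPM in both libraries. Cp (ENSMUSG00000003617, chromosome 3, 19957054 to 20009145 on the plus strand), the copper-bearing ferroxidase ceruloplasmin, had 119 counts in the knockdown and 94 in the control library. Its 7.55 and 5.58 CPM gave a ratio of 1.35 (1.02 to 1.79). Cp shares 108 exonic bases with Hps3 on the opposite strand, which had 160 and 219 counts, so the value is uncertain if counting ignored strand. Serpina3n (ENSMUSG00000021091, chromosome 12, 104406729 to 104414329 on the plus strand), a secreted serine protease inhibitor, had 15 counts in the knockdown and 8 in the control library. Its 0.951 and 0.475 CPM gave a ratio of 2.00, with an interval of 0.797 to 5.46 that holds 1. Serpina3n belongs to a cluster of close copies and shares 6.90% of its 50-base words with transcripts of other genes. Serpina3h, a pseudogene of that cluster, had 5 and 3 counts in the knockdown and control libraries. Lcn2 (ENSMUSG00000026822, chromosome 2, 32384633 to 32388252 on the minus strand), lipocalin 2, an iron-siderophore carrier and a leading marker of strong astrocyte reactivity, had 2 counts in each library. That is below the floor of 3 counts, and no fold is given.

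Iron genes around ceruloplasmin and lipocalin 2 lay within 2-fold about as often as genes did in general. Of 20 iron handling genes 13 passed the minimum, with 0 at least 2-fold higher, 2 at least 2-fold lower and 11 within 2-fold, and a median log2 fold of -0.23. Of all genes past the minimum 84.6% lay within 2-fold. Slc22a17, a receptor for lipocalin 2, was at 845 CPM in the knockdown and 475 CPM in the control library. Lrp2, or megalin, which also takes up lipocalin 2, was at 2.60 and 17.2 CPM (ratio 0.151, interval 0.106 to 0.210). Bmp6, an upstream signal of iron balance in the liver, was at 0.951 and 5.64 CPM. Tfrc, the transferrin receptor, was at 80.0 and 143 CPM.

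**Figure D3:**
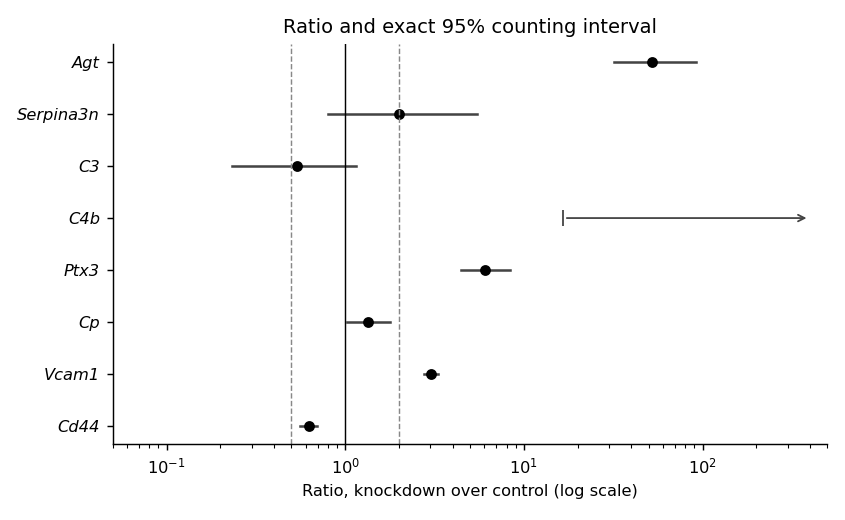
Ratio of knockdown over control for each gene but Lcn2, which was below 3 counts in both libraries (points, log scale) with its exact 95% counting interval (lines). The solid line marks 1 and the dashed lines 2-fold. C4b had 0 control counts, and its arrow starts at the lower end of the interval, 16.6. The intervals of Serpina3n and C3 cross 1.

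The order of the 9 genes by level per length differed between the libraries, and its first places depend on the length used. The values that follow are over the union of each gene's exons. In the knockdown library Agt led at 26.2 RPKM, followed by Vcam1 at 13.3, Ptx3 at 6.43 and Cd44 at 4.94 RPKM, with no overlap between the counting intervals of neighbours among these. Cp at 0.789 RPKM and C4b at 0.657 RPKM did not differ beyond counting error, nor did C4b and Serpina3n at 0.461 RPKM, nor C3 at 0.136 and Lcn2 at 0.0483 RPKM. In the control library Cd44 led at 7.88 RPKM, followed by Vcam1 at 4.43 and Ptx3 at 1.06 RPKM. From Cp at 0.583 RPKM through Agt at 0.502, C3 at 0.254 and Serpina3n at 0.230 to Lcn2 at 0.0452 RPKM each interval overlapped the next, and C4b was at 0. Over the longest transcript of each gene Vcam1 led in both libraries, at 28.9 RPKM beside Agt at 26.2 RPKM in the knockdown library, and at 9.61 RPKM beside Cd44 at 9.51 RPKM in the control library.

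**Figure D4:**
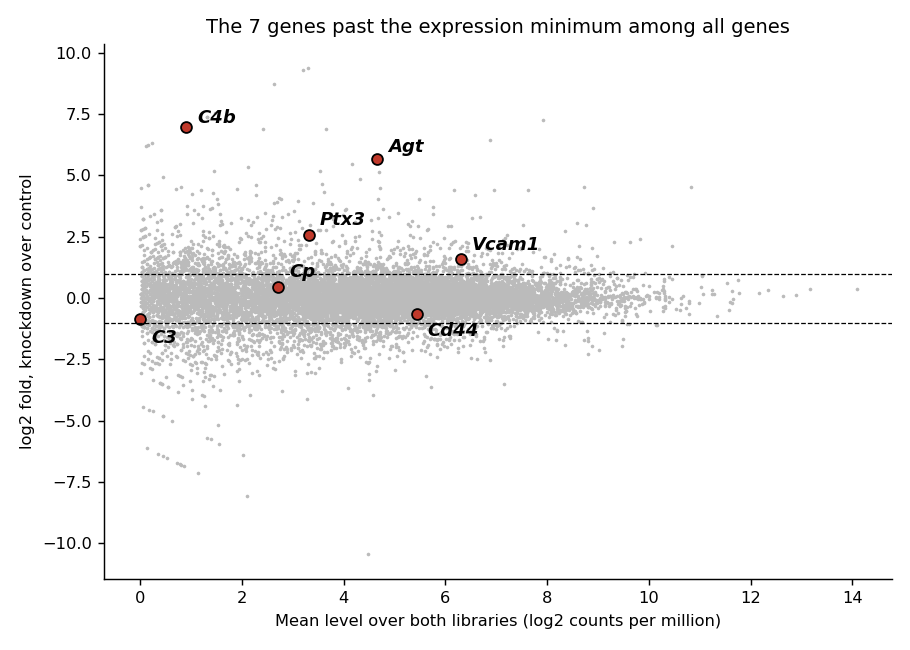
Log2 fold of knockdown over control against the mean level over both libraries, for the 14158 genes past the minimum (grey). The dashed lines mark 2-fold. The 7 of the 9 genes past the minimum are named: Agt, C4b, Ptx3 and Vcam1 lie above the upper line, and Cp, Cd44 and C3 lie between the lines.

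Published sets of reactive astrocyte genes give a wider frame for these 9. Among Agt, C4b, Ptx3 and Vcam1, which exceeded control by 2-fold or more, Ptx3 alone stands on these sets. Of 13 genes shared by forms of reactivity 7 passed the minimum, with 1 above control by 2-fold or more, 0 below it by as much and 6 within 2-fold, and a median log2 fold of 0.43. The higher gene was Gfap, the intermediate filament of astrocytes, at 481 CPM in the knockdown and 3.09 CPM in the control library. Vim, the other filament of the set, was at 3489 and 2879 CPM, and Timp1, a metalloprotease inhibitor, at 4.63 and 5.99 CPM. Osmr, the oncostatin M receptor, had 12 counts in the knockdown and 8 in the control library, and Steap4 had 3 and 5, both below the minimum.

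Of 12 genes linked to neuroinflammation 8 passed the minimum, with 3 above control by 2-fold or more, 0 below it by as much and 5 within 2-fold, and a median log2 fold of 0.39. Of all genes past the minimum, 7.64% exceeded control by 2-fold or more and 7.76% fell short of it by as much. The higher genes were Serping1, Ggta1 at 11.2 CPM in the knockdown and 3.98 CPM in the control library, and Gbp2, an interferon-induced GTPase, at 2.16 and 0.831 CPM. Serping1, at 1.78 and 0.415 CPM, and Gbp2 passed the minimum through the knockdown library alone. H2-D1, a class I histocompatibility gene, was at 86.7 and 78.7 CPM. Of 12 genes linked to ischaemia 8 passed the minimum, with 2 above control by 2-fold or more, 1 below it by as much and 5 within 2-fold, and a median log2 fold of 0.16. Besides Ptx3, the higher gene was Ptgs2, the inducible cyclooxygenase, with 26 counts in the knockdown and 6 in the control library, and the lower gene was Cd14 with 34 and 84. Ptgs2, at 0.356 CPM in the control library, also passed the minimum through the knockdown library alone. Emp1 and S100a10 lay within 2-fold, at 44.4 and 37.8 CPM and at 23.5 and 22.1 CPM in the knockdown and control libraries.

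STAT3 and NF-kB are transcription factors through which cytokines induce many acute phase genes. Of 30 genes of these routes 22 passed the minimum, with 2 at least 2-fold higher, 1 at least 2-fold lower and 19 within 2-fold, and a median log2 fold of -0.07. Stat3 was at 211 CPM in the knockdown and 173 CPM in the control library, and its feedback inhibitor Socs3 at 12.2 and 13.1 CPM. Relb, an NF-kB subunit, had 438 counts in the knockdown and 202 in the control library, a ratio of 2.32 (1.96 to 2.75), and Il6ra had 30 and 15 counts. Cebpb, a C/EBP factor of the acute phase response, was at 4.38 and 11.9 CPM (ratio 0.367, interval 0.275 to 0.484). Of the cytokines, Ccl2 had 44 counts in the knockdown and 86 in the control library, Cxcl1 24 and 29, and Tnf 2 and 29.

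**Figure D5:**
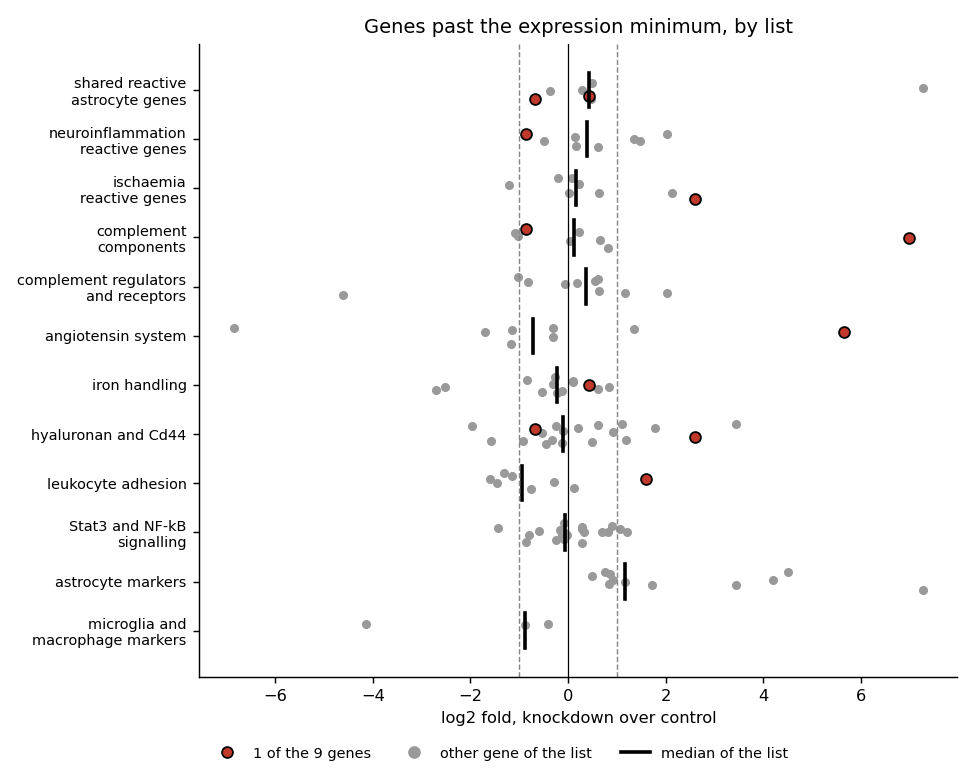
Log2 fold of knockdown over control for the genes past the expression minimum in each list (points), with the list's median (black bar) and dashed lines at 2-fold. Red points are those of the 9 genes that the list holds. The bar of the astrocyte markers stands at 1.17, and the bars of the 3 reactive gene lists lie between 0.16 and 0.43.

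Markers of several cell types differed between the libraries alongside the 9 genes. Of 11 astrocyte markers past the minimum 6 exceeded control by 2-fold or more and 0 fell short of it by as much. Their median log2 fold was 1.17 and their summed level 3489 CPM in the knockdown and 1032 CPM in the control library. Aqp4, the water channel of astrocyte endfeet, was at 61.4 and 5.58 CPM, and none of the listed astrocyte markers was at 0. Neural stem cell markers summed to 8835 and 6784 CPM (median log2 fold 0.73) and oligodendrocyte lineage markers to 4769 and 2928 CPM (median 3.70). Of the oligodendrocyte sum Olig1 made up 2432 CPM in the knockdown and 1751 CPM in the control library, and Olig2 1401 and 1087 CPM. Of these 11 markers 8 were at least 2-fold higher and 3 within 2-fold, among them Mog, with 11 counts in the knockdown and 24 in the control library. Neuron markers summed to 1211 CPM in the knockdown and 2868 CPM in the control library (median -2.0), and mesenchyme markers to 164 and 351 CPM (median -2.14), with Lum at 0 counts in the knockdown library. Pdgfra, also an oligodendrocyte lineage marker, had 122 CPM in the knockdown and 15.8 CPM in the control library, and without it the mesenchyme markers summed to 42.4 and 335 CPM. Endothelial and pericyte markers summed to 108 CPM in the knockdown and 49.4 CPM in the control library (median 0.45), but to 7.99 and 5.52 CPM without Cspg4, which the oligodendrocyte list holds too. Of that remainder Pdgfrb made up 5.14 and 1.13 CPM. The other markers past the minimum, Kdr and Egfl7, had 9 and 20 counts in the knockdown and 25 and 26 in the control library. Choroid plexus and ependymal markers summed to 154 and 92.3 CPM (median -0.26), of which Foxj1 alone made up 145 and 79.8 CPM. The other markers of this list past the minimum were Otx2, with 42 counts in the knockdown and 73 in the control library, and Rsph1, with 86 and 110. The part of these cell types in the values of the 9 genes was not tested.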

How the data were processed

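The authors deposited 1 table with a raw count per gene for 1 knockdown and 1 control library, per the file headers. Triplicates are mentioned in the design text, but there is 1 count column per group, and how many cultures it represents is not stated. Of the other list and family genes named here, Ace, Bmp6, C2, Cebpb, Csf1r, Cx3cr1, Egfl7, Gbp2, Has2, Has3, Heph, Icam1, Icam5, Il6ra, Itga4, L1cam, Nptxr, Olig1, Otx2, Pdgfra and Stat3 share exonic bases with another gene in GENCODE M21 and are uncertain where reads could be split. The authors' normalised values are CPM in which 0.5 stands for a count of 0. They served in an alternative alone, and the authors' fold and p-value columns were not used. Per the submitters' processing notes, the build was mm9 and the tools were HTSeq 0.6.0, TopHat2 2.0.12 and Bowtie2 2.2.3. The table's gene positions are those of GRCm38: of 19595 gene IDs, 18241 had the same start and end in GENCODE M21, all 9 genes among them. Strandedness and read length are not given in the sources used here.

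Counts were scaled with edgeR 4.0.16 TMM factors (0.982 for the knockdown, 1.018 for the control library). The log2 fold adds 0.5 to each count. A single library per group allows no test. Ratios carry exact conditional binomial (Clopper-Pearson) 95% intervals and levels exact Poisson ones. Intervals and floors cover counting error only, and copies made by PCR are not independent molecules. Lengths are unions of GENCODE M21 exons. Calculations were tested on simulated counts.

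The members, lists and rules were chosen with earlier results of these data known, and the family lists after the values were seen. Besides all members, up to 4 genes per list with the largest absolute log2 fold were taken, plus list genes at 0 in 1 library with at least 20 counts in the other and close paralogs. Some list genes outside that rule are named as well, for their role, after their values were seen. With 2 libraries no likeness between expression patterns was computed. Alternatives were DESeq2 1.42.0 size factors, total counts, the authors' CPM, a prior count of 5, no minimum, a minimum of 10 CPM and 1.5-fold.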

Additional observations from a re-analysis of the deposited data

How the results depend on the processing

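No paired analysis was possible because each group has 1 library, which also means that no replicate could be left out. Lcn2 aside, which had 2 counts in each library, the log2 folds of the 9 genes kept their sign under DESeq2 factors, total counts, the authors' CPM and a prior count of 5, and each stayed inside its counting interval except that of C4b, which was 3.77 with a prior count of 5, against 6.99, since it rests on 0 control counts. Scaling to total counts or the authors' CPM moved the median of all genes to a log2 fold of -0.057. The number of ischaemia genes at least 2-fold higher was 1 under DESeq2 factors, total counts and the authors' CPM. With a prior count of 5, higher STAT3 and NF-kB genes numbered 1, lower complement components 0, and lower regulators and receptors 1.

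At 1.5-fold, 2259 genes of all were higher and 2218 lower. Of the 9 genes 2 were then lower, Cd44 and C3. Higher genes numbered 3 among complement components, 4 among regulators and receptors, 2 in iron handling and 5 in STAT3 and NF-kB signalling. Lower genes numbered 1 in the shared reactive and 1 in the neuroinflammation list, 4 in hyaluronan and 4 in STAT3 and NF-kB signalling.

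Without an expression minimum 2286 genes were higher and 2475 lower, with a median of 0.012. Complement components then had 2 higher and 8 lower genes and a median log2 fold of -1.03 (-0.87 with genes at 0 placed at 3 counts), and regulators and receptors had 6 lower and a median of -0.57, both opposite to the medians given above. Lower genes numbered 1 in the neuroinflammation, 2 in the ischaemia and 2 in the STAT3 and NF-kB list, higher adhesion genes 2, and the endothelial median was -0.085. The genes added have few counts.

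With a minimum of 10 CPM 500 genes were higher and 496 lower. Higher genes then numbered 0 in the neuroinflammation list (median -0.18), 1 in the ischaemia list, 0 among complement components (median 0.73), 1 among regulators and receptors, 1 in hyaluronan and 1 in STAT3 and NF-kB signalling. Lower genes numbered 1 in the angiotensin system and 0 in the ischaemia, complement component, regulator, iron, hyaluronan, adhesion (median 0.12) and STAT3 and NF-kB lists, and the choroid plexus median was 0.86. Few genes per list passed that minimum. With the length of the longest transcript in place of the exon union, 4 of 18 places in the order by level per length changed, Vcam1 trading the first place with Agt in the knockdown and with Cd44 in the control library. Depth limits C3 and Serpina3n, whose intervals hold 1, and Lcn2.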

Other observations

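The closest relatives of the 9 genes gave another view of them, from family lists chosen after the values were seen. Among the pentraxins, Ptx3 was joined by Nptx1, a neuronal pentraxin that gathers glutamate receptors at synapses, at 90.1 CPM in the knockdown and 18.5 CPM in the control library, a ratio of 4.88 (4.32 to 5.54). Its relatives Nptx2 and Nptxr were lower, with ratios of 0.460 (0.422 to 0.501) and 0.573 (0.528 to 0.621). Among the thioester proteins, the family of C3 and C4, A2m was at 62.6 and 62.1 CPM in the knockdown and control libraries and Cd109 at 32.7 and 20.9 CPM. Of 8 serpins past the minimum, Agt and Serping1 were at least 2-fold higher. Serpinf1 (ratio 0.175, 0.0760 to 0.357) and Serpini1, the neuronal serpin (0.396, 0.336 to 0.466), were at least 2-fold lower, while Serpine2, the most abundant in the knockdown library, was at 484 and 407 CPM. Of the lipocalins, Ptgds, the prostaglandin D synthase of brain, was at 60.2 and 33.9 CPM, and Apod had 1 and 29 counts. Of the relatives of Cp, Heph, another ferroxidase, had 29 and 20 counts and F8, a coagulation factor gene, had 25 and 10. Of 8 immunoglobulin adhesion genes past the minimum, Vcam1 alone was at least 2-fold higher, and L1cam, Icam1 and Icam5 were at least 2-fold lower.

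The chromosomal neighbours of the 9 genes were looked at as well. Of 28 genes past the minimum among the nearest listed genes on each side (up to 2 a side), 22 lay within 2-fold, 3 were at least 2-fold higher and 3 at least 2-fold lower. Beside Agt, C4b, Ptx3 and Vcam1, 5 of 12 such neighbours were past 2-fold in either direction, and beside the other 5 genes 1 of 16, against 15.4% of all genes past the minimum. Beside Agt, Cog2 lies 4.53 kb away with 385 counts in the knockdown and 353 in the control library, and 2310022B05Rik lies 66.0 kb away on the other side with 4285 and 1149 counts. Neighbours past 2-fold also included C4a, Veph1, Pgbd5 at a log2 fold of -1.49 beside Agt and 4632415L05Rik at 1.26 beside Cp.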
